A study of Mus musculus with 4 samples.

Results

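The 10 genes described here encode the inflammasome sensor NLRP3 (Nlrp3) and its adaptor ASC (Pycard), the inflammatory caspases 1 and 4 (Casp1, Casp4), the pore-forming gasdermins D and E (Gsdmd, Gsdme), and the interleukin-1 family members IL-1α (Il1a), IL-1β (Il1b), the IL-1 receptor antagonist (Il1rn) and IL-18 (Il18). They were taken by gene symbol from a table of 56748 genes, and each of the 10 matched 1 row. They were examined in lungs carrying metastases of 4T1-FLuc, a luciferase-expressing mouse triple-negative breast cancer line, from female BALB/cJ mice that had received 2000000 of these cells through the tail vein at 7 weeks of age. The 2 control mice had been given saline. The 2 treated mice had been given ADC/cmLumiOpto, that is an antibody against CD276 carrying the microtubule poison mertansine (DM1), together with a gene therapy for a light-gated channel (CoChR) that depolarizes mitochondria of cancer cells. The channel gene is driven by the cfos promoter, is delivered by adeno-associated virus inside exosomes that carry the same antibody, and is lit from inside the cell by a luciferase and its substrate ViviRen. In the methods the doses are 8 mg/kg for the ADC and 2 mg/kg for ViviRen. The sample labels give 16 mg/kg for the ADC. Their titles call the control saline and do not name Olap. Other label fields call the control PBS and add the abbreviation Olap to the treatment. The methods also describe 4 samples per group and dissociated lung tissue, whereas the labels describe tumor cells harvested from the lung after 3 weeks of treatment, and 2 samples per group were analyzed here. All tumors came from 1 cell line.

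Inflammasomes are protein assemblies that form in a cell, mostly a macrophage or neutrophil, when a sensor such as NLRP3 meets signs of infection or damage. Through the adaptor ASC they activate caspase-1, which cuts the precursors of IL-1β and IL-18 into active cytokines and cuts gasdermin D, whose fragment opens pores in the plasma membrane, so that the cytokines leave and the cell dies by pyroptosis. Caspase-4 (also known as caspase-11 in the mouse) cuts gasdermin D when it binds bacterial lipopolysaccharide, and gasdermin E forms pores of the same kind. RNA levels report the supply of these proteins and not their cleavage, which is the step that activates the pathway.

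The deposited values were raw counts of reads per gene, between 15263375 and 19675436 in all per sample, and are given as CPM, the count scaled to a common library size with TMM factors. At these depths 3 counts, taken as the floor, correspond to 0.153 to 0.197 CPM, for counting error only, and the members had 53 to 1909 counts in each sample. Epithelial genes listed as markers of the tumor cells and alveolar markers of the lung were both present. Whether the RNA of these epithelial genes came from tumor or lung was not tested. Krt8 was between 1117 and 1543 CPM, whereas the summed alveolar epithelial markers were at 1568 and 336 CPM in the saline samples and 5717 and 4899 CPM in the treated samples, so the libraries also hold normal lung. ADC/cmLumiOpto replicate 2 stood apart in neutrophil genes: the 11 markers summed to 9414 CPM there, against 726 to 1591 CPM in the other 3 samples. Gene positions are given as listed with the counts. The methods name GRCm38 and the submitters' processing notes name mm39, and 9 of the 10 members were listed at positions other than those of GRCm38.

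Levels of 9 of the 10 genes were higher after ADC/cmLumiOpto in the fitted estimate and that of Il1a was lower, but no gene passed the test. The median log2 fold change of the 10 was 0.44, beside 0.028 over all 15320 genes tested. An estimate above 0 was found in 52.0% of all tested genes. All 10 members passed the filter on low counts, and 0 of them had an adjusted p under 0.05 in the quasi-likelihood test of edgeR (Benjamini-Hochberg adjustment), as was the case for 0% of all genes, the smallest adjusted p of any gene being 0.116. At an unadjusted p under 0.05 there were 2 members, Il1b and Casp4, both higher. Of all tested genes 23.2% reached that p. By direction, 11.0% of all tested genes were higher and 12.2% lower. In 5 members (Pycard, Casp4, Gsdmd, Il1b and Il1rn) both treated samples lay above both saline samples, which held for 28.1% of all tested genes. In Il1a both lay below, which held for 28.8%. In bulk samples fewer cells of a type and less RNA per cell cannot be told apart, and the smallest two-sided p that exact permutation of 4 samples allows is 0.333. The counts of each gene in the 4 samples are given before its fold change, and replicate numbers only name the mice.

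**Figure D1:**
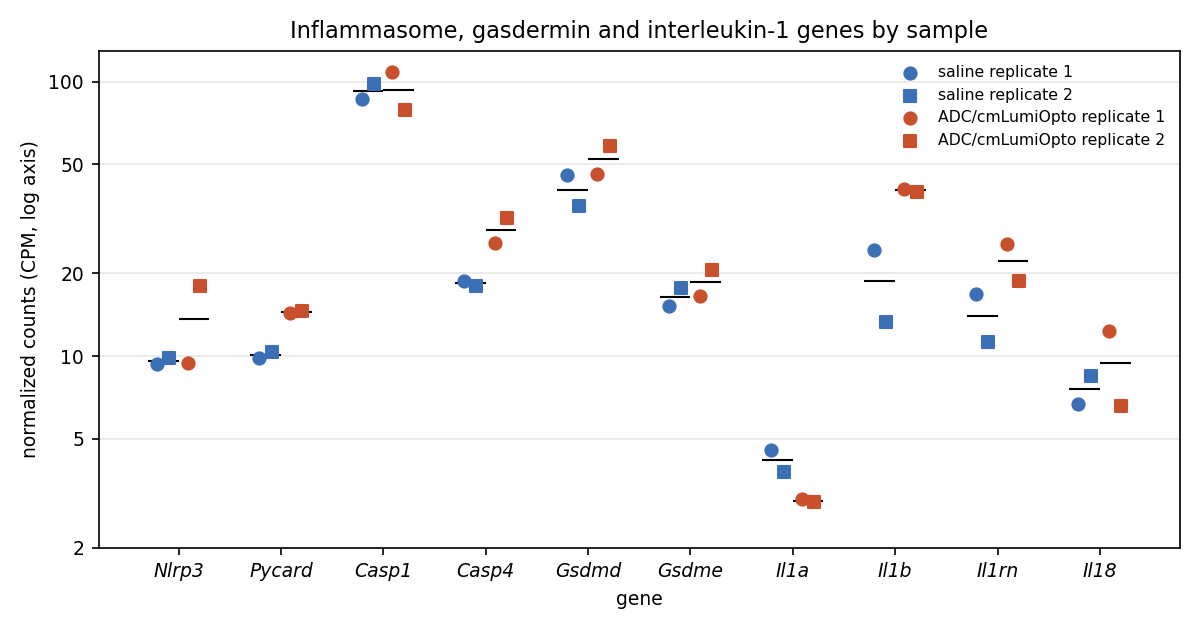
Normalized counts (CPM, log axis) of the 10 genes in the 2 saline (blue) and 2 ADC/cmLumiOpto (orange) samples, with a bar at each group mean. The treated points of Il1b, at 40.8 and 39.7 CPM, sit together above both saline points, whereas those of Nlrp3 are apart with the lower one inside the saline range, and those of Il18 lie on either side of it.

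Compared per kilobase of the listed gene length, the mean level of Casp1 was the highest of the 10 and that of Gsdme the lowest in both groups, although with treatment the samples of Gsdme overlapped those of Il1a. In the saline group the order was Casp1 (29.4 ± 2.72 CPM per kilobase; SD, n = 2), Gsdmd (17.0 ± 3.09), Il1b (9.86 ± 4.09), Il18 (7.33 ± 1.19), Casp4 (4.96 ± 0.132), Pycard (2.66 ± 0.105), Il1rn (2.54 ± 0.710), Nlrp3 (2.36 ± 0.0917), Il1a (2.11 ± 0.283) and Gsdme (1.29 ± 0.137). The samples of Il1b and Il18 overlapped there, as did those of the neighbors from Pycard through Il1rn and Nlrp3 to Il1a. In the ADC/cmLumiOpto group Il1b stood at 21.1 ± 0.373 CPM per kilobase (SD, n = 2), within the range of Gsdmd (21.9 ± 3.63) and clear of Il18 (9.18 ± 3.96). The order of the means was otherwise the same except that Il1rn came before Pycard. In that group the samples also overlapped between Il18 and Casp4, Il1rn and Pycard, Pycard and Nlrp3, and Il1a and Gsdme. Casp1 had the most RNA per length in both groups without overlap with its neighbor, and the sensor and adaptor had levels several places below it.

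Nlrp3 (ENSMUSG00000032691, chromosome 11, 59432394 to 59457782), the sensor that responds to ion efflux and cell damage, had 149 and 146 counts with saline and 166 and 368 with treatment. Its levels were 9.32 and 9.84 CPM in the saline samples and 9.41 and 18.0 CPM in the treated samples. ADC/cmLumiOpto replicate 1 was level with the controls and replicate 2 stood above the other 3 samples. For Nlrp3 the log2 fold change was 0.52 ± 0.36 (standard error, edgeR adjusted p = 0.415). Without ADC/cmLumiOpto replicate 2, the sample with the high neutrophil markers, it was -0.030, and the part of neutrophils in it was not tested.

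Pycard (ENSMUSG00000030793, chromosome 7, 127588880 to 127593039), the adaptor that joins sensor and caspase, had 157 and 154 counts with saline and 253 and 299 with treatment. At 9.82 and 10.4 CPM against 14.3 and 14.6 CPM, the samples of each group lay close together and the groups did not overlap. The log2 fold change was 0.52 ± 0.24 (standard error, edgeR adjusted p = 0.249), the same size as for Nlrp3, and ranged from 0.47 to 0.56 when single samples were left out, the narrowest such range of the 10 genes.

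Casp1 and Casp4 are neighbors on chromosome 9, and their levels differed in how they stood against treatment. Casp1 (ENSMUSG00000025888, 5298508 to 5307290), which matures IL-1β and IL-18, had 1378 and 1457 counts with saline and 1909 and 1617 with treatment. In CPM these were 86.2 and 98.2 with saline and 108 and 78.9 with treatment, so that the treated samples lay on either side of the controls. Its log2 fold change was 0.021 ± 0.21 (standard error, edgeR adjusted p = 0.963). Its sign was not stable, with values of -0.083 without saline replicate 1, -0.22 without ADC/cmLumiOpto replicate 1 and -0.063 when the trend of fold change on gene length was removed. Casp4 (ENSMUSG00000033538, 5308828 to 5336783), the sensor of intracellular lipopolysaccharide in the non-canonical pathway, had 300 and 268 counts with saline and 455 and 655 with treatment. Both treated samples, at 25.8 and 31.9 CPM, lay above the saline samples at 18.8 and 18.1 CPM. The log2 fold change was 0.65 ± 0.21 (standard error; unadjusted p = 0.0175 and adjusted p = 0.148, edgeR), and its adjusted p ranged from 0.101 to 0.507 over the alternatives. Within each sample the ratio of Casp4 to Casp1 counts, which needs no normalization, was 0.218 and 0.184 with saline and 0.238 and 0.405 with treatment. The ratios did not overlap between groups, and the two-sided exact permutation p of 0.333 is the smallest this design can give.

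The starts of these 2 caspase genes are shown because the genes lie side by side and differ in their values. The 250 bases before each RefSeq start site of GRCm38.p6 were searched on both strands for the κB consensus of NF-κB, for GAGGAA (a core bound by the myeloid factor PU.1), for TGANTCA (AP-1) and for TATAAA (the TATA box), with matches in capitals. Of 32841 such promoters of all genes, 3.90%, 23.3%, 6.75% and 12.4% held a match. The Casp1 promoter lies at chr9:5298267-5298516 on the plus strand, and the first of 2 listed Casp4 promoters at chr9:5308599-5308848 on the plus strand.
Casp1: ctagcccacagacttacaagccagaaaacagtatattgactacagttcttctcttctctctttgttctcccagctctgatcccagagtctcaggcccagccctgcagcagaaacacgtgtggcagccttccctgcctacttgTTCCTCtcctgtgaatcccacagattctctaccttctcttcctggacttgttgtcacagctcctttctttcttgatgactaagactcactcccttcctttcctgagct
Casp4: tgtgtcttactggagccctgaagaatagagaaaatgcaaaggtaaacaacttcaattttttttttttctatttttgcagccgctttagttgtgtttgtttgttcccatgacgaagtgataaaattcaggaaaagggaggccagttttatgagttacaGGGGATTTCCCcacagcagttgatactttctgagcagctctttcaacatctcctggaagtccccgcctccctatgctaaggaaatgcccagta
Casp4 held the κB match, with overlapping hits from position -93 counted back from the start site, and Casp1 held only a GAGGAA match on the opposite strand. Of the 10 members, 9 (all but Gsdmd) had promoters in the set. Among them Nlrp3 was the other with a κB match, and Nlrp3, Pycard, Casp1 and Il1a had GAGGAA. A match is a run of letters and not a measured site.

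Of the 2 gasdermins, Gsdmd (ENSMUSG00000022575, chromosome 15, 75734176 to 75739257) is the substrate of caspases 1 and 4. It had 729 and 522 counts with saline and 811 and 1193 with treatment, or 45.6 and 35.2 CPM against 46.0 and 58.2 CPM. The lower treated sample was only just above the higher saline sample. For Gsdmd the log2 fold change was 0.37 ± 0.21 (standard error, edgeR adjusted p = 0.327). It was 0.18 without ADC/cmLumiOpto replicate 2, 0.19 without saline replicate 2 and 0.20 with the length trend removed. Gsdme (ENSMUSG00000029821, chromosome 6, 50165868 to 50240842), the other gasdermin of the members, had 243 and 262 counts with saline and 293 and 421 with treatment. At 15.2 and 17.7 CPM against 16.6 and 20.5 CPM the groups overlapped, and the log2 fold change was 0.18 ± 0.23 (standard error, edgeR adjusted p = 0.675). It was 0.011 without ADC/cmLumiOpto replicate 2 and 0.48 with the length trend removed. Gsdme overlaps Pals2, which lies on the opposite strand and had 866 to 1109 counts per sample. Whether the libraries kept the strand is not given in the sources used here, and without strand the reads of the overlapping parts cannot be told apart. The ratio of Gsdmd to Gsdme counts, at 3.0 and 1.99 with saline and 2.77 and 2.83 with treatment, overlapped (exact permutation, two-sided p = 1.0). The other mouse gasdermins were close to absent. Gsdma, Gsdma2, Gsdma3 and Gsdmc4 had at most 4 counts in any sample, and Gsdmc, Gsdmc2 and Gsdmc3 had none in any, which allows up to 0.153 to 0.197 CPM.

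The member with the largest fold change was Il1b, and its neighbor Il1a was the only one with a lower estimate. Il1b (ENSMUSG00000027398, chromosome 2, 129206490 to 129213059), whose product is inactive until caspase-1 cuts it, had 389 and 197 counts with saline and 719 and 815 with treatment. The treated samples agreed closely at 40.8 and 39.7 CPM, whereas the saline samples differed from each other, at 24.3 and 13.3 CPM. Its log2 fold change was 1.10 ± 0.29 (standard error; unadjusted p = 0.00849 and adjusted p = 0.125, edgeR), with group means 2.14-fold apart. It passed the threshold in DESeq2 (adjusted p = 0.0126), in the edgeR exact test (0.0252) and without a filter on low counts (0.00028), where 8.43%, 7.64% and 8.84% of all genes passed (3.79%, 3.96% and 4.79% as higher), and without saline replicate 1 (0.0377), where 1.34% did (1.01% as higher). Without saline replicate 2, the lower of the controls, the log2 fold change was 0.73 and the adjusted p in edgeR 0.442. No member passed there, where 0.0613% of all genes did, or without ADC/cmLumiOpto replicate 1, where 0.0314% did. A fit with the replicate number as a block, although the numbers mark no pairs, called 3.96% of all genes, 2.01% as higher, and Il1b among them (adjusted p = 0.0412 in edgeR). The call for Il1b thus turned on the test, the filter, the block and which control was kept, and its estimate was above 0 in each of these settings.

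Il1a (ENSMUSG00000027399, chromosome 2, 129141530 to 129151892), an alarmin that is active without caspase-1 and is released by dying cells, had 73 and 56 counts with saline and 53 and 60 with treatment. At 4.56 and 3.77 CPM against 3.004 and 2.93 CPM, both treated samples were below both controls. The log2 fold change was -0.49 ± 0.37 (standard error, edgeR adjusted p = 0.459). The ratio of Il1b to Il1a counts was 5.33 and 3.52 with saline and 13.6 and 13.6 with treatment. Both treated ratios were above both saline ratios (two-sided exact permutation p = 0.333, the smallest the design allows), although the difference rests on fewer than 80 counts of Il1a in each sample.

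The promoters of this pair are shown for the same reason as those of the caspases. They are listed at chr2:129309973-129310222 for Il1a and at chr2:129371140-129371389 for Il1b, both on the minus strand of GRCm38.p6.
Il1a: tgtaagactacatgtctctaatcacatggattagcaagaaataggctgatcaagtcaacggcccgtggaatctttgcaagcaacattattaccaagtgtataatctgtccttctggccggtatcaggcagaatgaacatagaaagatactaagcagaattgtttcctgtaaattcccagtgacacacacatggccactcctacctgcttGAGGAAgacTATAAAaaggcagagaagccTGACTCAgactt
Il1b: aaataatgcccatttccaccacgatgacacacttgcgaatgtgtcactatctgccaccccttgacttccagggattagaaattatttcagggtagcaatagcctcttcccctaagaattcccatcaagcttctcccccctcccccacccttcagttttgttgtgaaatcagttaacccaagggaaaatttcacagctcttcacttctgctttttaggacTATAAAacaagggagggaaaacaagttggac
Both held TATAAA, starting at positions -32 and -31. Il1a also held GAGGAA from -41 and TGACTCA from -12, and Il1b held none of the other motifs in this window.

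Il1rn (ENSMUSG00000026981, chromosome 2, 24226865 to 24241506) encodes the antagonist that occupies the IL-1 receptor without signaling. It had 269 and 167 counts with saline and 451 and 384 with treatment, or 16.8 and 11.3 CPM against 25.6 and 18.7 CPM. The groups did not overlap, and their log2 fold change was 0.66 ± 0.29 (standard error, edgeR adjusted p = 0.234). It was 0.40 without saline replicate 2 and 0.42 without ADC/cmLumiOpto replicate 1. Levels of Il1b and of this antagonist were thus both higher in the 2 treated mice, and neither gene passed the test. The ratio of Il1rn to Il1b counts was 0.692 and 0.848 with saline and 0.627 and 0.471 with treatment, lower in both treated samples (two-sided exact permutation p = 0.333, the smallest possible). Il18 (ENSMUSG00000039217, chromosome 9, 50466127 to 50493140), the second cytokine matured by caspase-1, had 107 and 125 counts with saline and 218 and 135 with treatment. At 6.69 and 8.43 CPM against 12.4 and 6.58 CPM, 1 treated sample was the highest of the 4 and the other the lowest. The log2 fold change was 0.32 ± 0.38 (standard error, edgeR adjusted p = 0.637), -0.20 without ADC/cmLumiOpto replicate 1 and -0.018 with the length trend removed. Il18 overlaps Bco2 and Tex12 on the other strand, which had at most 15 counts in a sample, and the antisense genes listed over Il1b, Il1a and Pycard had at most 2.

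**Figure D2:**
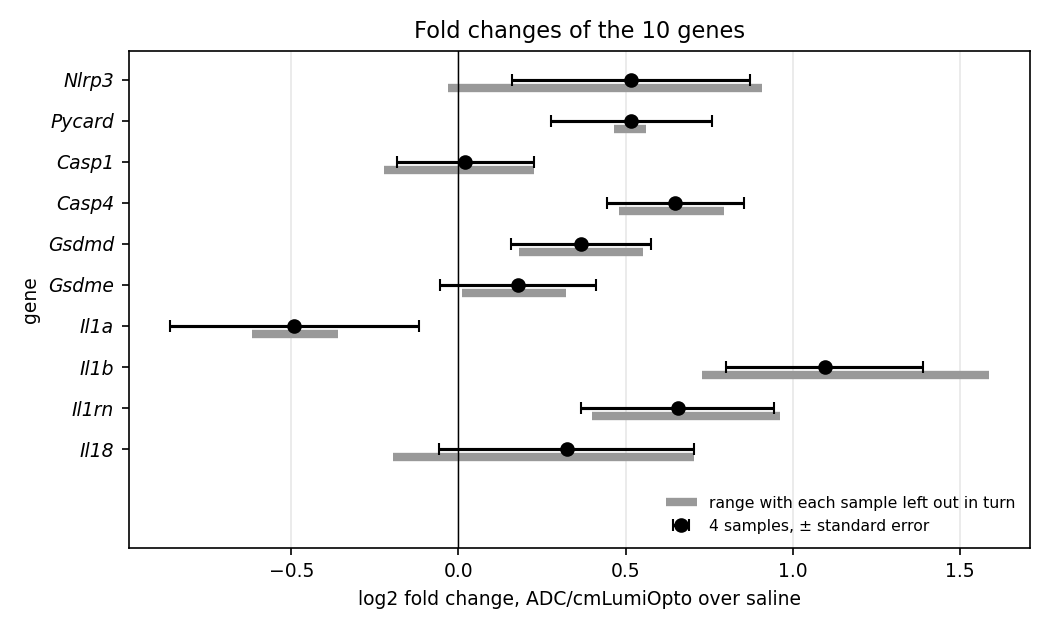
Log2 fold change of each gene (ADC/cmLumiOpto over saline; points with standard errors) and, as grey bars, its range with each of the 4 samples left out in turn. The grey bars of Nlrp3, Casp1 and Il18 cross 0, and that of Il1b runs from 0.73 to 1.59.

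The summed level of pan-leukocyte markers was also higher in both treated samples. Which cells of these mixed libraries the members' RNA came from was not tested. Summed over 5 pan-leukocyte genes, the level was 745 and 492 CPM in the saline samples and 906 and 1237 CPM in the treated samples. Of the 5 genes, 4 were higher without overlap, which held for 28.1% of all tested genes. Summed over 12 macrophage and monocyte genes the level was 2559 and 2005 CPM against 5184 and 3314 CPM. Lyz2 made up most of this sum, at 1687 and 1128 CPM against 4299 and 2447 CPM, and the sum followed it. Of the 12 genes, 4 (Lyz2 among them) were higher without overlap and 1 (Mrc1) was lower, beside 28.1% and 28.8% of all tested genes. The other genes of this list overlapped between groups. Summed over the 11 neutrophil genes, none of them absent, the level was 1591 and 726 CPM against 1457 and 9414 CPM. The sum of the 7 T cell genes was 46.7 and 16.8 CPM against 98.3 and 42.7 CPM. Both sums overlapped between groups. Gene by gene, 4 of the 11 and 3 of the 7 were higher without overlap and 0 lower, beside 28.1% and 28.8% of all tested genes. Estimates of all 11 and all 7 were above 0, as were those of 52.0% of all tested genes. Set against the leukocyte sum, Il1b was at 32.6 and 27.0 CPM per 1000 CPM with saline and 45.0 and 32.1 with treatment, which overlapped. Pycard, Casp4 and Il1rn also overlapped between groups on this scale. Gsdmd, at 61.2 and 71.5 against 50.7 and 47.0, was lower on it in both treated samples, as were Gsdme and Il1a. For Gsdmd the direction thus differed between the CPM scale and this one. Set against the neutrophil sum, and against the macrophage and monocyte sum, Gsdmd overlapped between groups. Against the latter sum, which is mostly Lyz2, Casp1 and Il18 were lower in both treated samples. The part of leukocyte markers in these results was not tested. Il1a, at 6.13 and 7.67 CPM per 1000 CPM of the leukocyte sum against 3.32 and 2.37, was lower in both treated samples on each scale used.

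**Figure D3:**
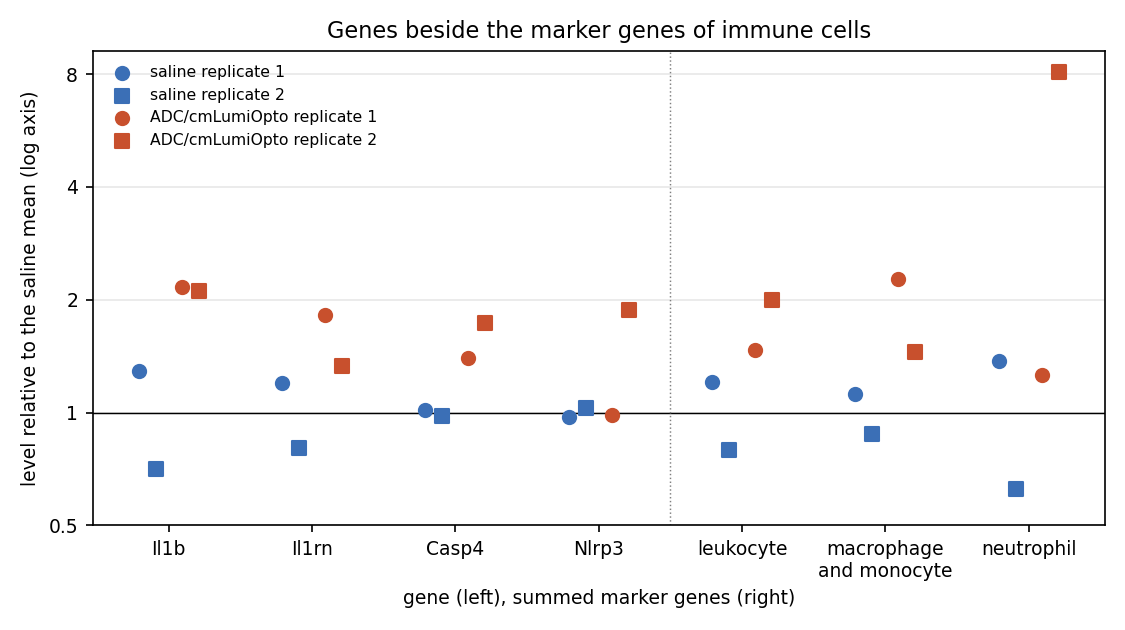
Levels in each sample relative to the mean of the 2 saline samples (log axis) for 4 of the genes, to the left of the dotted line, and for summed marker genes of leukocytes, of macrophages and monocytes and of neutrophils, to the right. The neutrophil sum of ADC/cmLumiOpto replicate 2 is at 8.13, whereas Il1b is near 2 in both treated samples, at 2.17 and 2.11. The macrophage and monocyte sum is mostly Lyz2.

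Among the other genes of the pathway, the sensors had mostly higher and the licensing factors mostly lower estimates, and no gene passed the test. Of 52 further genes in 6 groups, 39 passed the filter on low counts. Estimates were above 0 for 20 and below for 19, and the median log2 fold change was 0.029, beside 0.028 for all tested genes. None had an adjusted p under 0.05 in edgeR. At an unadjusted p under 0.05 in the quasi-likelihood test, 3 of the 39 were higher and 2 lower. Of all tested genes 11.0% were higher and 12.2% lower at that p. DESeq2 and the edgeR exact test each called the same 5, namely Nlrp12, Il36g and Il18r1 (higher) and Il33 and Traf6 (lower), beside 8.43% and 7.64% of all genes.

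Of the other sensors, 7 of 9 tested had estimates above 0 and 5 of 9 did not overlap, all higher, where 52.0% and 28.1% of all tested genes did so. Nlrp12, a regulator with a pyrin domain found in neutrophils and monocytes, was at 2.13 and 0.944 CPM in the saline samples and 2.66 and 17.5 CPM in the treated samples. Its log2 fold change of 2.70 ± 0.90 (standard error, edgeR adjusted p = 0.158) was 0.78 without ADC/cmLumiOpto replicate 2, the sample with the high neutrophil sum. Nlrp1b, a sensor of pathogen proteases, was at 2.44 and 1.48 CPM against 3.23 and 5.46 CPM (log2 fold change 1.15, adjusted p = 0.219), and Aim2, which binds cytosolic DNA, at 6.38 and 4.99 CPM against 7.59 and 10.5 CPM (0.67, adjusted p = 0.269). Reads of Nlrp1b and the Naip genes can be shared with close copies. Nlrp6 had no count in any sample, and Nlrp1a at most 1.

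Among the licensing genes, 1 of 6 had an estimate above 0 and 5 below, where 52.0% of all tested genes were above 0. Nek7, the kinase NLRP3 needs to assemble, was at 233 and 281 CPM in the saline samples and 201 and 217 CPM in the treated samples (log2 fold change -0.30, adjusted p = 0.333 in edgeR). For P2rx7, the ATP-gated channel upstream of NLRP3, it was -0.40 (adjusted p = 0.450), and for Txnip -0.16 (adjusted p = 0.678). Both overlapped between groups, and with single samples left out they ranged from -0.75 to 0.063 and from -0.46 to 0.086, so that their sign was not stable. Of the executioners beside the gasdermins, Ninj1, which completes membrane rupture, and Casp8 had log2 fold changes of 0.14 and 0.029.

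The smallest p in the family outside the members was that of Il33 (ENSMUSG00000024810, chromosome 19), an alarmin stored in nuclei of epithelial and stromal cells. It was at 99.8 and 133 CPM in the saline samples and 49.9 and 40.5 CPM in the treated samples. The groups were far apart, with a log2 fold change of -1.36 ± 0.21 (standard error, edgeR adjusted p = 0.116) that ranged from -1.57 to -1.14 when single samples were left out. Summed fibroblast markers, mostly Col1a1, Col1a2 and Col3a1, were lower in the same samples, at 5071 and 3466 CPM against 1722 and 1397 CPM. Summed epithelial tumor cell markers were also lower, at 2638 and 3022 CPM against 2573.5 and 2475.5 CPM. Summed alveolar epithelial markers were higher, at 1568 and 336 CPM against 5717 and 4899.5 CPM, and summed endothelial markers overlapped. The part of these cell types in the values of Il33 was not tested. Il36g, an IL-1 family cytokine of epithelia and neutrophils, was at 4.00 and 1.75 CPM against 4.99 and 23.1 CPM (log2 fold change 2.28, adjusted p = 0.159), and at 0.78 without ADC/cmLumiOpto replicate 2. Il18bp, the soluble inhibitor of IL-18, overlapped between groups (log2 fold change -0.17, adjusted p = 0.839). Il36a, Il36rn and Il1f10 had no count in any sample.

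The IL-18 receptor chain Il18r1 was at 22.0 and 11.1 CPM in the saline samples and 48.9 and 35.0 CPM with treatment, with a log2 fold change of 1.34 ± 0.35 (standard error, edgeR adjusted p = 0.123), whereas its partner Il18rap overlapped between groups. The signaling receptor Il1r1 was at 138 and 155 CPM against 100.2 and 122 CPM, lower in both treated samples (log2 fold change -0.39, adjusted p = 0.244). Sigirr, an inhibitory receptor, was at 36.8 and 38.6 CPM against 48.1 and 46.0 CPM (0.32, adjusted p = 0.269). The decoy receptor Il1r2 varied most within groups, at 42.2 and 91.5 CPM in the saline samples and 25.4 and 140.2 CPM in the treated samples.

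Downstream of the receptors, 4 of 10 genes had estimates above 0 and 6 below, where 52.0% of all tested genes were above 0. Traf6, the ubiquitin ligase that relays the signal to NF-κB, was at 50.5 and 63.7 CPM against 22.9 and 31.8 CPM, a log2 fold change of -1.06 ± 0.23 (standard error, edgeR adjusted p = 0.116) and a range from -1.32 to -0.85 when single samples were left out. Map3k7, the kinase it activates, was at 84.6 and 98.0 CPM against 70.5 and 71.0 CPM (-0.37, adjusted p = 0.240). The receptor adaptor Myd88 was at 54.4 and 46.3 CPM against 57.5 and 83.0 CPM (0.48, adjusted p = 0.247), with a range from 0.19 to 0.72 when single samples were left out. Adaptor and ubiquitin ligase of the same signaling route thus had estimates of opposite sign.

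**Figure D4:**
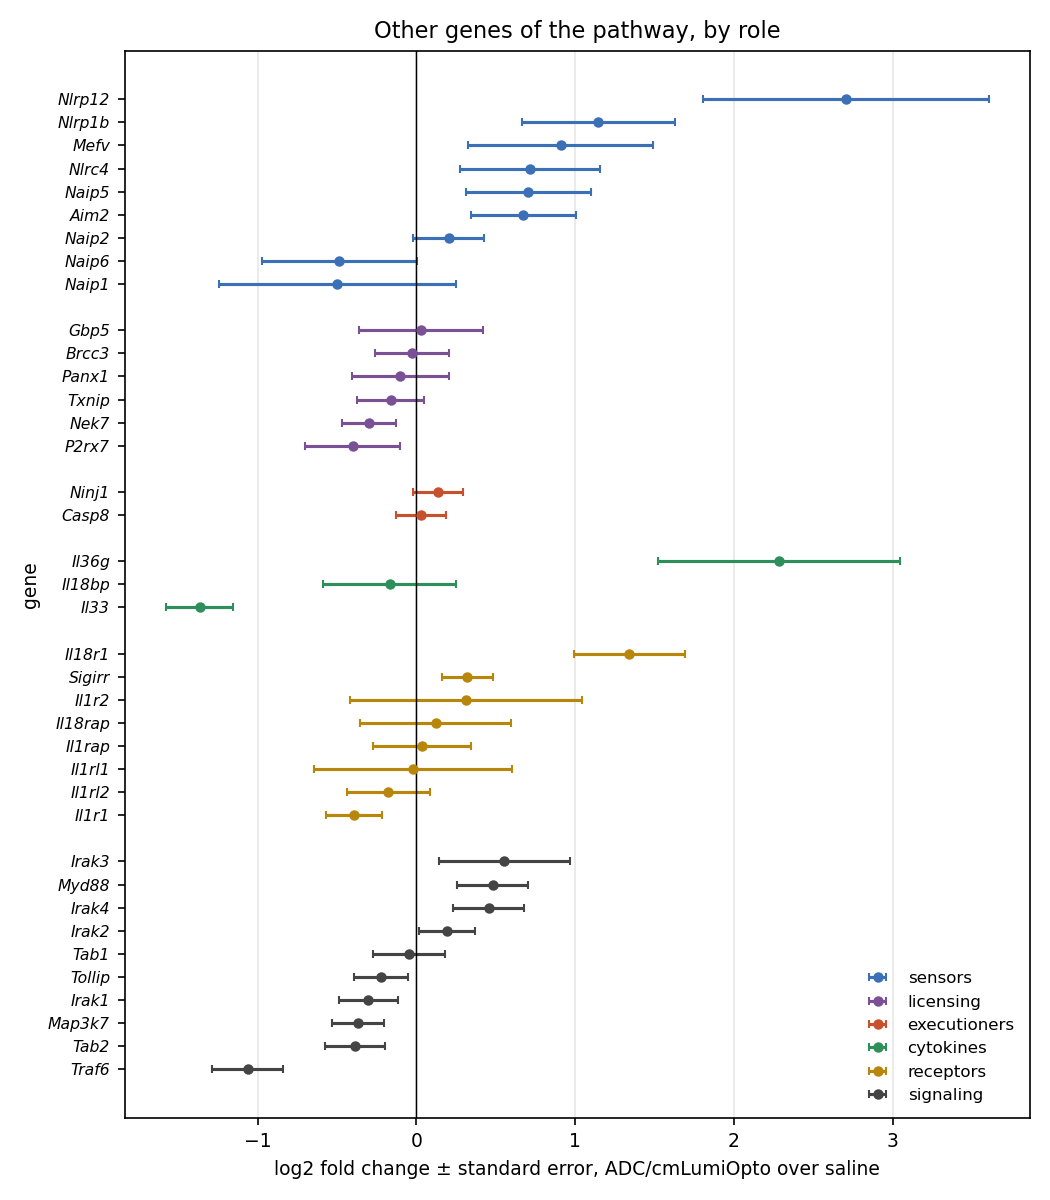
Log2 fold change with standard error (ADC/cmLumiOpto over saline) of the tested genes of the pathway outside the 10 members, all but 1, grouped and colored by role. Nlrp12 and Il36g are farthest to the right, with the widest errors, and Il33 and Traf6 farthest to the left.

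Over the 4 samples, the tested genes whose log2 CPM followed that of Il1b most closely were Gpd1, Hsh2d, Foxa1, Selenbp2 and ENSMUSG00000121092, at Euclidean distances of 0.067 to 0.11 on the log2 scale. These are the nearest of 15320 genes over 4 points, and such closeness is a description of these libraries.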

How the data were processed

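Messenger RNA of 2 saline and 2 ADC/cmLumiOpto lung samples was sequenced on an Illumina HiSeq platform. The authors deposited raw counts (whole reads, not normalized) for 56748 genes. The methods state alignment with HISAT2 to GRCm38, the submitters' processing notes name mm39, and the counting program is not given in the sources used here. Samples were grouped by their titles. In R 4.3.3, edgeR 4.0.16 was run with filterByExpr defaults (minimum count 10, minimum total 15; 15320 genes kept), TMM, estimateDisp, and glmQLFit and glmQLFTest with Benjamini-Hochberg adjustment over all genes, at a threshold of 0.05. Fold changes had a prior count of 0.125. A standard error is the fold change divided by the square root of F. P-values rest on the spread between 2 mice per group, moderated for each gene by the spread of all tested genes. CPM per kilobase used the gene length listed with the counts. DESeq2 1.42.0, the exact test, other normalizations and filters, a lowess trend on length (span 0.3), a block for the replicate number and each sample left out were alternatives. The procedure was tested on simulated data. Members and lists were chosen with earlier results of these data known. The genes named are all members and, per pathway group, the 3 with the smallest p, the 5 genes nearest to the member with the smallest p, and the most abundant markers. Il18rap, Il1r2 and Mrc1, and genes overlapping members, were named after their values were seen. For 1 tested pathway gene, included in the counts, no values are reported here.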

Additional observations from a re-analysis of the deposited data

How the results depend on the processing

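Of 120 fold changes of the members recomputed under other settings, 109 kept their direction and their side of the threshold, 5 of Il1b passed it, and 6 changed sign. Those that changed sign were Casp1 (-0.063 with the length trend removed, and between -0.22 and 0.23 with a sample left out), Il18 (-0.018 with the length trend removed, and between -0.20 and 0.70 with a sample left out) and Nlrp3 (between -0.030 and 0.91 with a sample left out). The number of members called, 0 in the quasi-likelihood test (2 at an unadjusted p under 0.05), was 1, namely Il1b, in DESeq2, in the exact test and without a filter on low counts, and between 0 and 1 with a sample left out. Of the pathway genes 0 were called (5 at an unadjusted p under 0.05), against 5 in DESeq2, 5 in the exact test, 5 without the filter and between 0 and 2 with a sample left out. Of all genes 0 were called (3553 at an unadjusted p under 0.05), against 1178 in DESeq2, 1170 in the exact test, 2259 without the filter and between 0 and 218 with a sample left out. Where a group was left with 1 sample, that sample was assumed to vary like those of the other group. The causes of these shifts were not tested. With a replicate block, 1 member (Il1b, adjusted p = 0.0412 in edgeR), 3 pathway genes (Il18r1, Il33 and Traf6) and 607 of all genes were called. Same-numbered samples came from separate mice, and their deviations correlated at 0.099 over genes, so the numbers were not taken as pairs. Depth limits Il1a most, with 53 to 73 counts per sample.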
